A study of Rattus norvegicus with 6 samples.

Results

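The genes described here build cholesterol and fatty acids in rat Schwann cells. They are a fixed list of 37 genes, namely 18 enzymes of sterol synthesis, 5 genes of SREBP regulation, 3 genes of sterol transport and 11 enzymes that make, elongate, desaturate or activate fatty acids. Of the 17327 genes in the files, 36 were matched by symbol, and Scd was matched through its RefSeq synonym as the row named Scd1. Reads from 35 of the 37 were numerous enough to be tested. The list was drawn up by function and not by the measured values, but with earlier results of these data known.

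Schwann cells wrap axons in myelin, a membrane very rich in cholesterol and in long fatty acids, and most of the cholesterol of myelin is made locally by the glial cell. Sterols are built from acetyl-CoA through mevalonate, farnesyl diphosphate, squalene and lanosterol, and fatty acids from acetyl-CoA through malonyl-CoA and palmitate. The SREBP transcription factors control many genes of both branches. They are escorted by SCAP and held back in the endoplasmic reticulum by the INSIG proteins when sterols are plentiful.

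RNA came from primary Schwann cell cultures of adult Wistar rats, which the study purified from sciatic nerves and grew without axons. Confluent cells, grown before with 10% FBS, were starved for 18 h in medium with 2% FBS and then received, for 6 h, either 10 nM recombinant soluble NRG1β1 (NRG1) or the same volume of the buffer that carries the ligand (mock). Per the labels the growth medium also held 63 ng/mL of glial growth factor, a form of neuregulin 1. The methods of the study name recombinant soluble NRG1β1 in that medium instead. The medium used for starvation and stimulation is listed without either, so that mock cells had met a neuregulin before the starvation. Forskolin, which raises cAMP, was present at 10 μM in all 6 samples, before and during stimulation, so that mock cells were not untreated cells. The samples came from 3 independent experiments, and a mock and an NRG1 sample with the same number in their titles are called a culture here, because the study paired its samples by replicate. The serum in the medium is itself a source of lipids. Counts on genes ranged from 6821590 to 15475018 per sample, and levels are given as CPM, that is, counts scaled to the library size with TMM factors. A floor of 3 counts corresponded to 0.19 CPM in the deepest and 0.44 CPM in the shallowest sample.

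Culture 1 stood apart from the other cultures in its cell type markers. The 7 Schwann cell markers were detected in all samples, and their summed level was 6155 CPM in mock and 4816 CPM in NRG1 of culture 1, against 12581 to 16097 CPM in the 4 samples of cultures 2 and 3. The 6 fibroblast markers summed to 53425 and 57718 CPM in culture 1 and to between 13693 and 22332 CPM in the other 4 samples. In those 4 samples the summed level came almost wholly from the collagen genes, with Dcn, Lum and Thy1 at 0 counts, whereas mock sample 1 held 4574, 174 and 9493 counts of the 3 genes. Adipocyte markers summed to less than 1 CPM in every sample, with Adipoq, Plin1 and Lep at 0. The genes that passed the test are therefore also given without culture 1. In bulk RNA, fewer cells of a type and less RNA per cell cannot be told apart.

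Promoter sequences from RefSeq (GRCr8 assembly, 300 bases around a transcription start) were found for 29 of the 37 genes. Those of Fads1 and Fads2, whose levels moved in parallel in the 3 cultures, and of Hmgcs1, which makes HMG-CoA at the start of the mevalonate route, are shown to compare their motif content. Fads1 lies on the plus strand at chr1:216252442-216252741, Fads2 on the minus strand at chr1:216171984-216172283 and Hmgcs1 on the plus strand at chr2:53382054-53382353. In RefSeq no protein-coding gene lies between Fads2 and Fads1. Capitals mark the NF-Y motif CCAAT and the Sp1 motif GGGCGG on either strand, and no matches overlapped. Fads2 and Hmgcs1 were chosen for display after their values had been seen.
Fads1: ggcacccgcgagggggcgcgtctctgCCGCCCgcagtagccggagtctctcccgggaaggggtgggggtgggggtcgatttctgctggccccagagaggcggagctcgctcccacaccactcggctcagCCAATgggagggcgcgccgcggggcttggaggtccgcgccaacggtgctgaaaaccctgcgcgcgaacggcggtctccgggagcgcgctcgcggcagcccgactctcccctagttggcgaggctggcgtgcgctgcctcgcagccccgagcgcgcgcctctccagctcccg
Fads2: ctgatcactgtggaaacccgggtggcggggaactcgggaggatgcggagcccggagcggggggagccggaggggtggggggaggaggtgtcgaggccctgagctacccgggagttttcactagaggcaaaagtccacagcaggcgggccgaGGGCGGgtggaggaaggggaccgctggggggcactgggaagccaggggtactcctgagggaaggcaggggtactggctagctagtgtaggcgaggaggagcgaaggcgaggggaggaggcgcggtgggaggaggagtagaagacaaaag
Hmgcs1: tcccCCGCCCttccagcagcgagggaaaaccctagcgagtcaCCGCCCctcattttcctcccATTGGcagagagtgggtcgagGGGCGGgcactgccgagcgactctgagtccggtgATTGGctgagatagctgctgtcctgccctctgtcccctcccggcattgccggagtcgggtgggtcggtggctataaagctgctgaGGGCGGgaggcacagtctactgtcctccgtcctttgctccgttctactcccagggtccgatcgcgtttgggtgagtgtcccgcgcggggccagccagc

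CCAAT was present in 80% of the 15 windows of sterol enzymes and in 50% of the 8 windows of fatty acid enzymes, against 37.5% of all 33469 windows in the RefSeq table. GGGCGG was present in 86.7% and 62.5% of them, against 33.1% of all windows. The E-box CACGTG was found in 6.67% of sterol and 12.5% of fatty acid windows, against 6.42% overall. The sterol regulatory element letters TCACNCCAC occurred in none of the members' windows and in 1.12% of all windows, which says only that these letters are not in these 300 bases. The windows of the RefSeq table were not limited to the genes tested here. The motif shares are descriptions of letters in a window and were not tested.

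**Figure D1:**
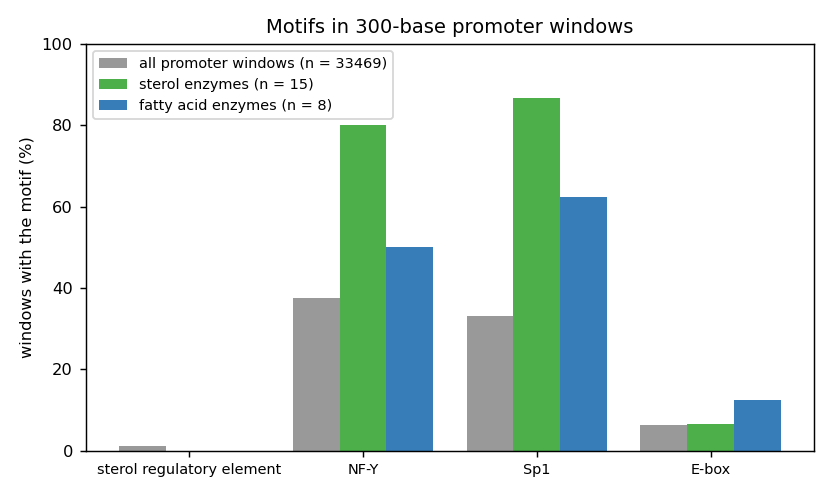
Share of 300-base promoter windows (vertical axis, in percent) that hold each of the 4 motifs on either strand, for all windows of the RefSeq table, sterol enzymes and fatty acid enzymes. CCAAT and GGGCGG stand at 80% and 86.7% of the sterol windows, against 37.5% and 33.1% of all windows.

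Few of these genes passed the test. By edgeR's quasi-likelihood test with the culture as a block, 1 of the 35 tested genes was higher and 1 was lower at an adjusted p of at most 0.01, while 6.31% of all 9740 tested genes were higher and 5.51% lower. The gene that rose was Fasn, which makes palmitate, and the gene that fell was Fads1, a desaturase of polyunsaturated fatty acids. Neither change reached a doubling or halving of the level, so that no member met the additional fold criterion of the study, an absolute log2 fold change over 1, which 1.56% of all genes met upward and 1.91% downward. At an adjusted p of at most 0.05, 3 members were higher (Fasn, Acaca and Scd) and 3 were lower (Fads1, Fads2 and Insig2), against 11.5% and 11.7% of all genes. The median log2 fold change was -0.024 over the members and -0.026 over all genes tested. The 95% interval of the log2 fold change lay between -1 and 1 in 34 of the 35 genes, the exception being Fasn.

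**Figure D2:**
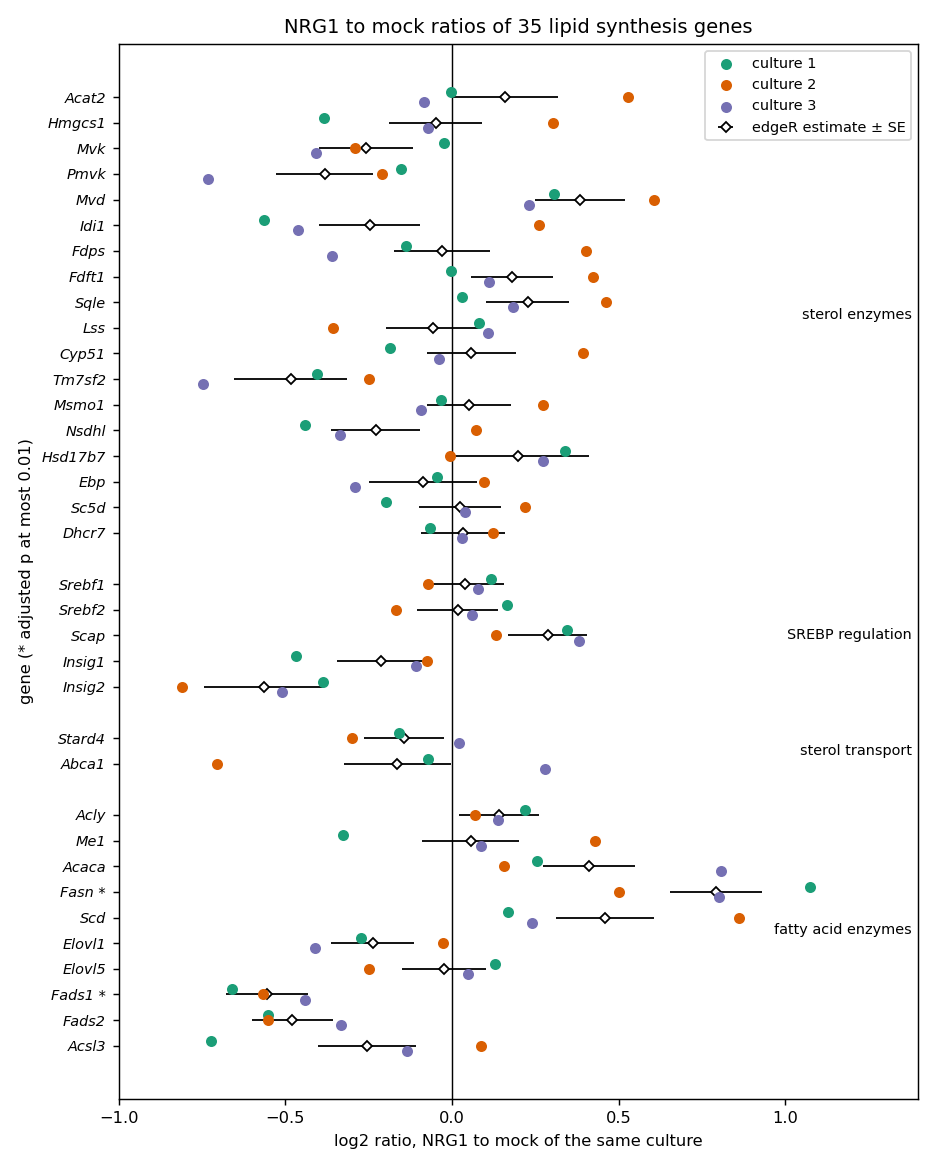
Log2 ratios of NRG1 to mock within each culture (horizontal axis, coloured points) and the edgeR estimate with its standard error (diamonds) for the 35 tested genes, in pathway order. Fasn lies right of 0 and Fads1 and Fads2 left of 0 in all 3 cultures, while most sterol enzymes have points on either side of 0.

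Fasn encodes fatty acid synthase, the multifunctional enzyme that assembles palmitate from malonyl-CoA. It was measured at 283.7, 693.7 and 558.7 CPM in mock samples 1, 2 and 3, and at 597.1, 982.9 and 974.5 CPM in NRG1 samples 1, 2 and 3. Each NRG1 sample was above the mock sample of its own culture, although the groups overlapped because culture 1 was low throughout. The log2 ratios within cultures were 1.07, 0.50 and 0.80, and the estimated log2 fold change was 0.79 (SE 0.14, where SE is the standard error, edgeR adjusted p = 0.001), a 1.73-fold rise. Without culture 1 the estimate was 0.66 with an edgeR adjusted p of 0.0042.

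The other 3 enzymes on the way to palmitate did not pass the threshold of 0.01. Acaca, the acetyl-CoA carboxylase that supplies malonyl-CoA, was at 85.4, 104.8 and 69.3 CPM in the mock samples and at 101.9, 116.8 and 121.4 CPM in the NRG1 samples. The estimated log2 fold change was 0.41 (SE 0.14, edgeR adjusted p = 0.044), and its ratio was above 0 in all 3 cultures but largest in culture 3. Without culture 3 the estimate was 0.23 with an edgeR adjusted p of 0.45. Acly, which releases acetyl-CoA from citrate in the cytosol, had a log2 fold change of 0.14 (SE 0.12, edgeR adjusted p = 0.43) with ratios between 0.069 and 0.22. Me1, the malic enzyme that supplies NADPH, had ratios of -0.33, 0.43 and 0.086 and no common direction. Summed over the 4 genes, the level was 779.8, 1396 and 1156 CPM in mock and 1150, 1739 and 1675 CPM in NRG1 samples. The summed level of NRG1 relative to mock was thus 1.47, 1.25 and 1.45 in cultures 1, 2 and 3, a difference carried mainly by Fasn.

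The genes that act on the finished acyl chain did not share a direction. Fads1, the delta-5 desaturase, was at 486.0, 799.2 and 879.8 CPM in mock samples and at 307.8, 539.5 and 648.3 CPM in NRG1 samples. It was lower with NRG1 in each culture, with log2 ratios of -0.66, -0.57 and -0.44, and its estimate was -0.55 (SE 0.12, edgeR adjusted p = 0.0053). Fads2, the delta-6 desaturase that acts before it in the same route, was at 333.9, 557.0 and 533.5 CPM in mock and 227.8, 379.8 and 423.2 CPM in NRG1 samples. Its log2 ratios were -0.55, -0.55 and -0.33, and its estimate of -0.48 (SE 0.12, edgeR adjusted p = 0.011) missed the threshold of 0.01. Without culture 1, 2 or 3 the edgeR adjusted p of Fads2 was 0.072, 0.026 and 0.055. Fads1 rested on all 3 cultures, since without culture 1, 2 or 3 its edgeR adjusted p was 0.038, 0.0103 and 0.039, with estimates between -0.59 and -0.50.

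Scd, a stearoyl-CoA desaturase that makes oleate, differed between cultures far more than between treatments. It was at 12.6, 101.8 and 99.7 CPM in mock samples and at 14.1, 185.0 and 117.7 CPM in NRG1 samples, so that mock levels spanned 8.11-fold. The log2 fold change was 0.46 (SE 0.15, edgeR adjusted p = 0.036), and culture 2 had the largest ratio, 0.86, against 0.17 and 0.24. Without culture 2 the estimate of Scd was 0.22 with an edgeR adjusted p of 0.25. Scd2, a close paralogue that is not among the members, was counted at between 3434 and 8710 CPM in these samples, and reads common to both genes could be assigned to either or left out by the counting. The values of Scd are therefore uncertain.

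Elongation and activation of fatty acids were not called in either direction. Elovl1, which elongates very long saturated chains, had a log2 fold change of -0.24 (SE 0.12, edgeR adjusted p = 0.19) with all 3 ratios below 0. Elovl5, an elongase of polyunsaturated chains, averaged 61.7 ± 11.3 CPM in the mock and 60.3 ± 7.87 CPM in the NRG1 group (SD, n = 3 each). Acsl3, which links fatty acids to CoA, had ratios of -0.72, 0.087 and -0.13, so that the low ratio came from culture 1. Elovl6, which extends palmitate to stearate, had a single count in mock sample 2 and 0 in the other 5 samples, and was not tested. Summed over the 7 genes for desaturation, elongation and activation, the level in NRG1 was 0.69, 0.82 and 0.79 times that in mock in cultures 1, 2 and 3. Fads1 and Fads2 mainly carried that difference. Of the 6 tested genes in the sum, 3 had all ratios below 0 and 1, Scd, had all ratios above 0. This division of the fatty acid enzymes into 4 and 7 genes was made after the values had been seen, and the sums have no test.

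**Figure D3:**
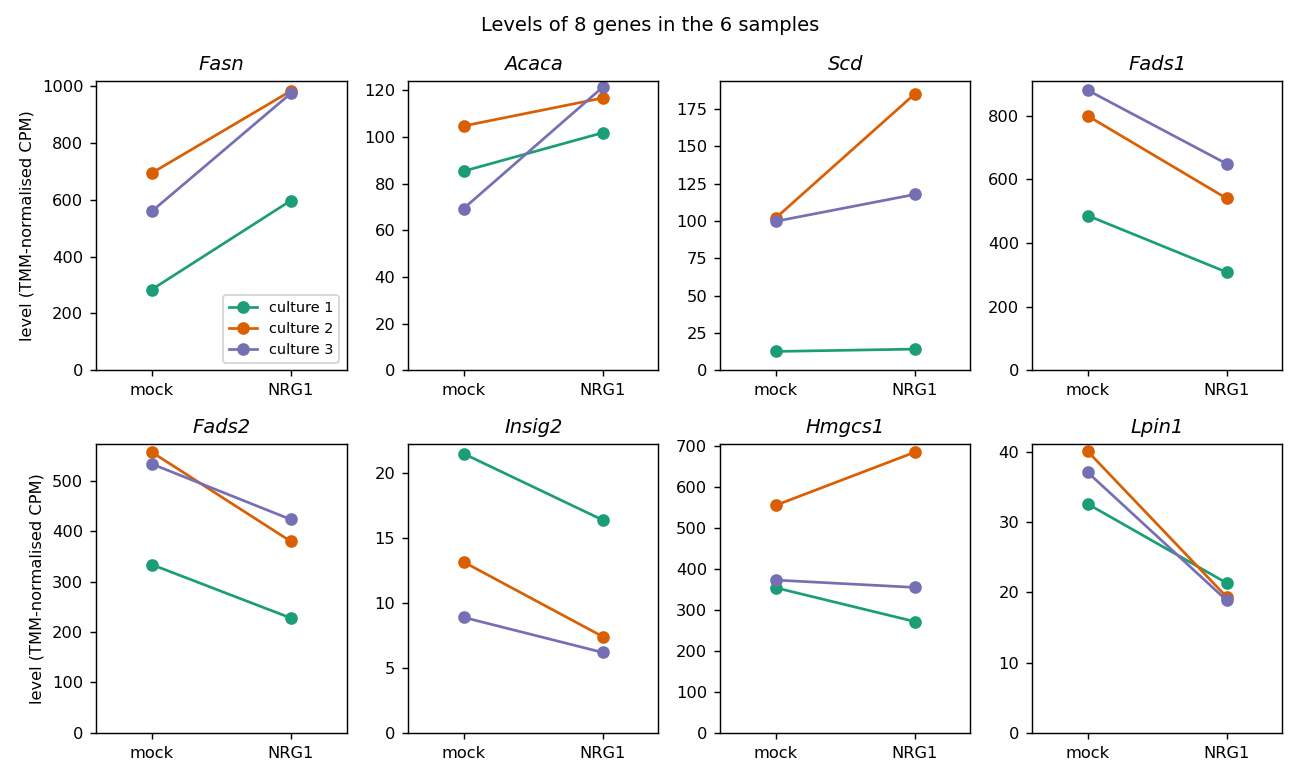
Levels of 8 genes (vertical axis, TMM-normalised CPM, starting at 0) in mock and NRG1 samples, with lines joining samples of the same culture. Fasn lines go up and Fads1, Fads2 and Lpin1 lines go down in all 3 cultures, while Hmgcs1 goes up in culture 2 and down in cultures 1 and 3.

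None of the 18 sterol enzymes was called, against 11.8% of all tested genes in either direction. By edgeR 3 of them had an unadjusted p under 0.05 (Pmvk, Mvd and Tm7sf2), against 3479 of all 9740 tested genes. DESeq2 with the same block called none, against 590 higher and 433 lower of all 9740. It had 2 with an unadjusted p under 0.05, against 2758 of all 9740. The median log2 fold change of the sterol enzymes was -0.0033, with single values from -0.48 to 0.38 and standard errors from 0.12 to 0.22. The widest 95% intervals reached -0.84 and 0.67, so that a 2-fold change lay outside the interval of every sterol enzyme, whereas smaller changes lie within the intervals. For each of the 18 genes the mock and NRG1 samples overlapped. Among all tested genes, the NRG1 samples lay wholly above the mock samples in 10.2% and wholly below in 9.94%.

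In the mevalonate part of the pathway, Hmgcs1, which condenses acetyl-CoA units to HMG-CoA, was at 353.8, 554.5 and 372.4 CPM in mock samples. In NRG1 samples it was at 271.3, 684.0 and 354.5 CPM, lower in cultures 1 and 3 and higher in culture 2. Acat2, the cytosolic thiolase before it, had log2 ratios of -0.0032, 0.53 and -0.083. Of the 2 kinases that phosphorylate mevalonate, Mvk had a log2 fold change of -0.26 (edgeR adjusted p = 0.2) and Pmvk of -0.38 (edgeR adjusted p = 0.071), with all 3 ratios below 0 in both genes. Mvd, the decarboxylase that acts directly after them, had the opposite sign in all 3 cultures, with ratios of 0.31, 0.61 and 0.23 and a log2 fold change of 0.38 (SE 0.14, edgeR adjusted p = 0.054). Consecutive steps thus had estimates of opposite sign, none of which passed the test. Idi1, the isomerase of isopentenyl diphosphate, was at 71.9, 131.4 and 80.4 CPM in mock and 48.5, 157.6 and 58.3 CPM in NRG1 samples. The estimate was -0.25 (edgeR adjusted p = 0.26) with all cultures and -0.51 (edgeR adjusted p = 0.0085) without culture 2, the only sterol enzyme called when a culture was left out. Fdps, which makes farnesyl diphosphate, had ratios of -0.14, 0.40 and -0.36.

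From squalene onward the pattern was similar. Sqle, the squalene epoxidase, had the same direction in all cultures, with ratios of 0.030, 0.46 and 0.18 and a log2 fold change of 0.23 (SE 0.12, edgeR adjusted p = 0.21). Fdft1, the squalene synthase, had a log2 fold change of 0.18 (edgeR adjusted p = 0.32) and Lss, which closes the ring to lanosterol, of -0.058 (edgeR adjusted p = 0.8). The demethylating enzymes Cyp51, Msmo1 and Nsdhl had log2 fold changes of 0.058, 0.051 and -0.23, each with its highest ratio in culture 2. Tm7sf2, a sterol reductase, had the most negative estimate of the sterol enzymes, -0.48 (SE 0.17, edgeR adjusted p = 0.051). It was at 10.8, 25.0 and 20.7 CPM in mock and 8.13, 21.0 and 12.3 CPM in NRG1 samples, lower in each culture. Hsd17b7, a keto-reductase with between 32 and 98 counts per sample, was the least precisely measured, at 0.20 (SE 0.22). Ebp, Sc5d and Dhcr7, which act late in the pathway, had log2 fold changes of -0.087, 0.024 and 0.033.

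The ratios of the sterol enzymes pointed in different directions in different cultures. The median log2 ratio of the 18 genes was -0.055 in culture 1, 0.24 in culture 2 and -0.077 in culture 3, while over all tested genes it was -0.031, -0.029 and -0.0087. The ratio was above 0 for 4, 13 and 7 of the 18 genes in cultures 1, 2 and 3. Culture 2 gave the highest of the 3 ratios for 14 of the 18 sterol enzymes and for 3814 of all 9740 genes. Summed, the sterol enzymes were at 1551, 2661 and 1947 CPM in mock and at 1384, 3280 and 1824 CPM in NRG1 samples, so that culture 2 also had the highest mock level. In culture 2 the summed fibroblast markers were at 22332 CPM in mock and 13693 CPM in NRG1, a log2 ratio of -0.71, against 0.11 and -0.014 in cultures 1 and 3. That sum of culture 2 was almost wholly Col1a1, at 21494 CPM in mock and 13413 CPM in NRG1, with Dcn, Lum and Thy1 at 0 counts. The summed Schwann cell markers had ratios of -0.35, -0.36 and -0.27. Whether these differences have a part in the sterol values of culture 2 was not tested, and with 1 sample per culture and treatment the difference between cultures has no test of its own.

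**Figure D4:**
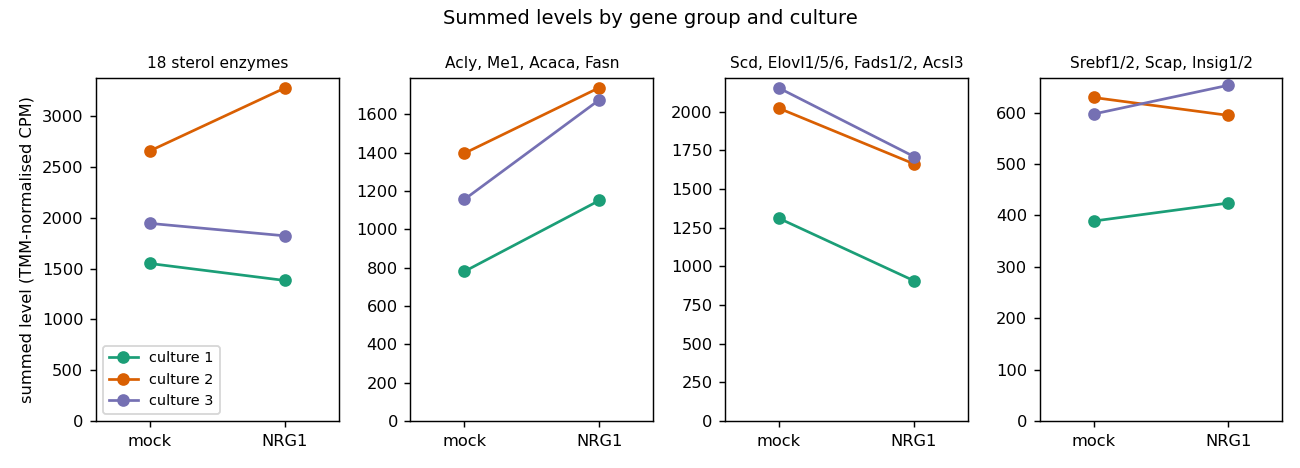
Summed levels (vertical axis, TMM-normalised CPM, starting at 0) of 4 gene groups in mock and NRG1 samples, with lines joining samples of the same culture. The sum of Acly, Me1, Acaca and Fasn goes up and that of the desaturases, elongases and Acsl3 goes down in each culture, while the sterol sum goes up in culture 2 only.

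Among the SREBP genes, transcripts of the factors themselves were not called. Srebf1 averaged 119 ± 47.6 CPM in the mock and 121 ± 44.3 CPM in the NRG1 group (SD, n = 3 each), with an estimate of 0.040 (SE 0.12). Srebf2, the main factor for sterol genes, averaged 231 ± 84.7 and 230 ± 72.4 CPM (SD, n = 3 each), with an estimate of 0.018 (SE 0.12). The 95% intervals were -0.21 to 0.29 for Srebf1 and -0.24 to 0.28 for Srebf2. Scap was the only member whose groups did not overlap, with 120.0, 127.4 and 135.8 CPM in mock and 152.4, 139.6 and 177.1 CPM in NRG1 samples. Its log2 fold change of 0.29 (SE 0.12, edgeR adjusted p = 0.092) was not called, and 10.2% of all tested genes had NRG1 samples that lay wholly above the mock samples. In 0 members did they lie wholly below, against 9.94% of all tested genes. Insig2 was at 21.5, 13.2 and 8.90 CPM in mock and 16.4, 7.42 and 6.20 CPM in NRG1 samples, lower in each culture, with a log2 fold change of -0.57 (SE 0.18, edgeR adjusted p = 0.035). Without culture 1, 2 or 3 the edgeR adjusted p of Insig2 rose to 0.059, 0.11 and 0.15. Insig1, the form that is itself a target of SREBP, had a log2 fold change of -0.21 (SE 0.13, edgeR adjusted p = 0.27) with all ratios below 0. None of the 5 genes was called at 0.01 by edgeR or by DESeq2 with the block. Of all 9740 tested genes, edgeR called 11.8%, and DESeq2 called 590 higher and 433 lower. With each tool, 2 of the 5 had an unadjusted p under 0.05. Of all 9740 tested genes, 3479 had one by edgeR and 2758 by DESeq2 with the block.

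The transport genes were not called either. Stard4, which carries cholesterol between membranes, had a log2 fold change of -0.14 (SE 0.12, edgeR adjusted p = 0.42). Abca1, the exporter of cholesterol to lipoproteins, was at 257.2, 431.5 and 380.0 CPM in mock and 244.6, 264.9 and 460.8 CPM in NRG1 samples. Its log2 ratios of -0.072, -0.70 and 0.28 had no common direction. Abcg1, another exporter, had between 2 and 6 counts per sample, near the floor of 3 counts, and was not tested.

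Set side by side, sterol and fatty acid enzymes had nearly the same middle value but a different spread. The median log2 fold change was -0.0033 for the 18 sterol and 0.016 for the 10 tested fatty acid enzymes. Within cultures the sterol median minus the fatty acid median was 0.017, 0.16 and -0.14, with a mean of 0.012 ± 0.15 (SD, n = 3). The fatty acid enzymes ranged from -0.55 to 0.79, with 2 called of 10, and the sterol enzymes from -0.48 to 0.38 with 0 called of 18, against 11.8% of all genes called in either direction. All 3 ratios had the same sign in 5 of the 18 sterol enzymes (2 above and 3 below 0) and in 7 of the 10 fatty acid enzymes (4 above and 3 below 0). Among all tested genes, 25.9% had 3 ratios above 0 and 30% had 3 below 0.

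The span of the 3 mock levels was larger than the estimated change with NRG1 for nearly all members. A span of single samples and an estimate over all cultures are unlike measures. The highest mock level was between 1.13 and 8.11 times the lowest, with a median of 1.79 over the members and 1.43 over all tested genes. In 34 of the 35 genes this span exceeded the absolute fold change with NRG1, the exception being Scap, and the same held for 77.2% of all tested genes. Mock sample 1 was the lowest of the 3 in 28 of the 35 members, among them 16 of the 18 sterol enzymes, and in 41.9% of all genes. Culture 1 is also the culture with the high fibroblast and low Schwann cell markers, and the part of these in the low levels was not tested. Me1, Insig2, Ebp and Acsl3 went the other way, with their highest mock level in culture 1. The comparison within cultures is thus what the calls rest on. The edgeR fit with no replicate block called 0 of all 9740 tested genes, and so 0 of the 35 members. In that fit 1334 of all tested genes and 0 of the members had an unadjusted p under 0.05.

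Beyond the members, 44 further genes of sterol and fatty acid metabolism had been listed, of which 38 were tested. Of these, 3 were higher and 1 was lower at an adjusted p of at most 0.01, against 6.31% and 5.51% of all tested genes. Tmem97, a sterol-responsive membrane protein, rose by a log2 fold change of 0.93 (SE 0.21, edgeR adjusted p = 0.0066), with its largest ratio of 1.82 in culture 2. Without that culture it was 0.52 with an edgeR adjusted p of 0.021, and without culture 1 it was 1.20 (edgeR adjusted p = 2.55e-07). Fabp5, a carrier of fatty acids, had a log2 fold change of 0.79 (SE 0.18, edgeR adjusted p = 0.0069) and ratios of 1.20, 1.12 and 0.064, so that the difference came from cultures 1 and 2. Without culture 1 it was 0.59 (edgeR adjusted p = 0.0102) and without culture 2 it was 0.61 (edgeR adjusted p = 0.044), in both cases above the threshold of 0.01. Acsl5, another acyl-CoA synthetase, had 0.58 (SE 0.14, edgeR adjusted p = 0.0078), and 0.72 (SE 0.18, edgeR adjusted p = 0.000857) without culture 1. Acsl5 no longer passed without culture 2, at 0.39 (edgeR adjusted p = 0.032), or culture 3, at 0.67 (edgeR adjusted p = 0.014). Lpin1, a phosphatidate phosphatase of glycerolipid synthesis, fell from 32.6, 40.1 and 37.1 CPM in mock to 21.3, 19.3 and 18.8 CPM in NRG1 samples. The estimate was -0.89 (SE 0.14, edgeR adjusted p = 0.00062), with no overlap of the groups. Without culture 1 it was -1.01, with a larger SE of 0.20 (edgeR adjusted p = 2.03e-05). A smaller adjusted p with a culture left out is not stronger evidence, since its size is not comparable with that of the full fit. The 34 other genes of the list that were tested did not pass.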

How the data were processed

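Per the labels, poly(A) RNA from 3 mock and 3 NRG1-stimulated samples was sequenced on the Illumina NextSeq 500 platform. Mapping to rn5 was done by the authors with TopHat2 2.0.10 and counting over RefSeq genes with htseq, and raw counts were deposited as 1 file per sample. Whether the counting used strand is not given in the sources used here. Between 47.0% and 49.9% of alignments were assigned to genes, and the summary lines were left out. Condition and replicate number, here called the culture, came from the sample titles. The 37 members, their groups, the other gene lists and the rule that every member and every called gene of the other list is named were chosen with earlier results of these data known.

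Genes were filtered with filterByExpr (edgeR 4.0.16, R 4.3.3) at a minimum count of 10, which left 9740 of 17327. Counts were TMM-normalised and fitted with a quasi-likelihood model in which the culture entered as a block, since the study used a paired design, with Benjamini-Hochberg adjustment over all tested genes. A gene was called at an adjusted p of at most 0.01. Each standard error was derived from the estimate and the square root of its F statistic. Single log2 ratios used log2 CPM with a prior count of 2. The pairing was checked on deviations from group means, which correlated across genes with r between 0.67 and 0.91 for samples of the same number and between -0.80 and 0.51 otherwise. No pair of libraries agreed within sampling noise. The alternatives were DESeq2 1.42.0 with and without the block, no replicate block, RLE scaling, other count filters, robust empirical Bayes, leaving out each culture and other thresholds. Some genes of the other list are not reported here and are left out of its counts. Adjusted p from fits with a culture left out are not comparable in size with those from all cultures. The smallest edgeR adjusted p over all genes was 5.8e-48 without culture 1, against 6.1e-08 in the main fit. The scripts were tested on simulated counts. No gene lengths of the rn5 build were used, so levels are not compared between genes.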

Additional observations from a re-analysis of the deposited data

How the results depend on the processing

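The calls depended on the block by culture. With no replicate block, edgeR called 0 of all 9740 tested genes, and so 0 members and 0 of the other pathway genes. DESeq2 with no replicate block called 111 of all tested genes higher and 67 lower. It called 0 members and 0 other pathway genes as higher, with Lpin1 still called lower. The pairing rests on the replicate number that a mock and an NRG1 sample share in their titles and on the paired design of the study. DESeq2 with the block, robust empirical Bayes, no filter on low counts and a minimum of 10 counts in all samples each called 2 members lower. Both were fatty acid enzymes, since Fads2 then passed beside Fads1. Over all tested genes these fits called 433 of 9740, 547 of 9740, 857 of 13129 and 562 of 9210 lower, against 537 of 9740 in the main fit. At an adjusted p of at most 0.05, 3 members were called higher and 3 lower, 3 and 2 of them fatty acid enzymes, with 6 and 4 of the other pathway genes. Of all tested genes, 11.5% were higher and 11.7% lower at that threshold. With an absolute log2 fold change over 1 and an adjusted p of at most 0.01, 0 members and 0 other pathway genes were called. Of all tested genes, 1.56% were then higher and 1.91% lower. Robust empirical Bayes left 1 other pathway gene higher, against 635 of all 9740 tested genes, and no filter gave 3 lower. RLE scaling changed no count of members or other pathway genes, with 665 higher and 559 lower over all tested genes.

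Leaving out each culture in turn called 1 member higher each time (Fasn) and between 0 and 1 lower. Over all tested genes, 590 of 9926 were higher and 601 lower without culture 1. Without culture 2, 524 of 10339 were higher and 392 lower, and without culture 3, 408 of 10160 were higher and 253 lower. Between 0 and 1 sterol enzymes were called lower (Idi1 without culture 2) and 0 fatty acid enzymes, as Fads1 was lost each time. Between 1 and 3 other pathway genes were called higher and between 1 and 4 lower. Among the members, no called gene changed sign. The log2 fold changes that changed sign and moved by more than their SE were those of Acat2 (from -0.046 to 0.31), Hmgcs1 (from -0.22 to 0.12), Fdps (from -0.25 to 0.16), Lss (from -0.13 to 0.10), Cyp51 (from -0.11 to 0.18), Abca1 (from -0.37 to 0.11) and Me1 (from -0.11 to 0.25). Those of Msmo1, Ebp, Sc5d, Dhcr7, Srebf2 and Elovl5 changed sign within their SE. The medians of sterol and of fatty acid enzymes and their difference stayed within 1 SD of the values over 3 cultures in all alternatives run. These SDs, 0.18, 0.083 and 0.15, are wide against the values themselves. The difference could not change with the block or with robust empirical Bayes, which do not enter it, and it was not computed with DESeq2. Few counts limit the values of Hsd17b7, Abcg1 and Elovl6. For Elovl6 the deepest sample, NRG1 sample 3, also had 0 counts.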
